A study of Mus musculus with 6 samples.

Results

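A set of 9 genes of megakaryocytes and platelets was followed through the aorta-gonad-mesonephros (AGM) region of mouse embryos that differed in Tph2, the gene of the neuronal tryptophan hydroxylase that starts serotonin synthesis. They were Pf4, Ppbp, Gp9, Gp1bb, Itga2b, Itgb3, Clec1b, Plek and Fermt3, taken by symbol from the 23446 rows with gene symbols, and all 9 were found and passed the filter on low values (12869 genes). The embryos were C57BL/6 at E11.5 with the genotypes tph2+/+, tph2+/- or tph2-/-, 2 RNA sequencing libraries each and 6 in all, and the labels name no other allele and no treatment. Wild type, heterozygotes and homozygotes below are these 3 genotypes in that order. The sources used here do not say how the allele was made. The labels mention littermates but not which libraries share a litter or how many embryos a library holds, and the p-values therefore cover the spread between libraries alone, which may be technical. Levels are in RPKM, read counts scaled by gene length and by library size, so they can be compared between genes. The series concerns serotonin made in the AGM and the survival of blood stem and progenitor cells.

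Megakaryocytes are the large marrow and fetal liver cells that shed platelets, and in the embryo their first precursors arise with the early blood waves before and during the time when stem cells form in the AGM. Platelets store chemokines in alpha granules, bind von Willebrand factor through the glycoprotein Ib-IX-V complex, and bind fibrinogen through an integrin that is switched on from inside the cell. They also take up serotonin from plasma through the transporter Slc6a4 and keep it in dense granules. Some of these genes are not particular to the lineage: Itga2b also marks the earliest committed blood progenitors, Itgb3 is made by other cells, and Plek and Fermt3 are found across blood cells.

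In both mutant genotypes the granule chemokines, the integrin subunits, Gp9, Plek and Fermt3 stood well above tph2+/+, and Gp1bb and Clec1b did not pass the test. Of the 9 genes, 7 rose in tph2-/- against tph2+/+ and 7 in tph2+/- against tph2+/+ (limma adjusted p under 0.05 over all tested genes), beside 5.84% and 4.13% of all tested genes that were called higher. None fell, beside 3.81% and 1.95% called lower and 9.64% and 6.08% called in either direction. The median log2 fold change of the 9 was 0.82 in tph2-/- and 0.99 in tph2+/-, against medians of 0.0302 and 0.024 over all tested genes. These 2 comparisons share the tph2+/+ libraries. The genes were chosen with earlier results of these data known, so the counts describe them and are no independent evidence of a direction. The split of calls over all genes depended on scaling. In tph2-/- it was 751 higher and 490 lower as deposited, 548 and 667 after quantile normalization and 620 and 640 after median-of-ratios scaling. In tph2+/- it was 531 and 251 as deposited and 408 and 370 after quantile normalization. Of the 9 genes, 7 were called in each comparison under both scalings.

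**Figure D1:**
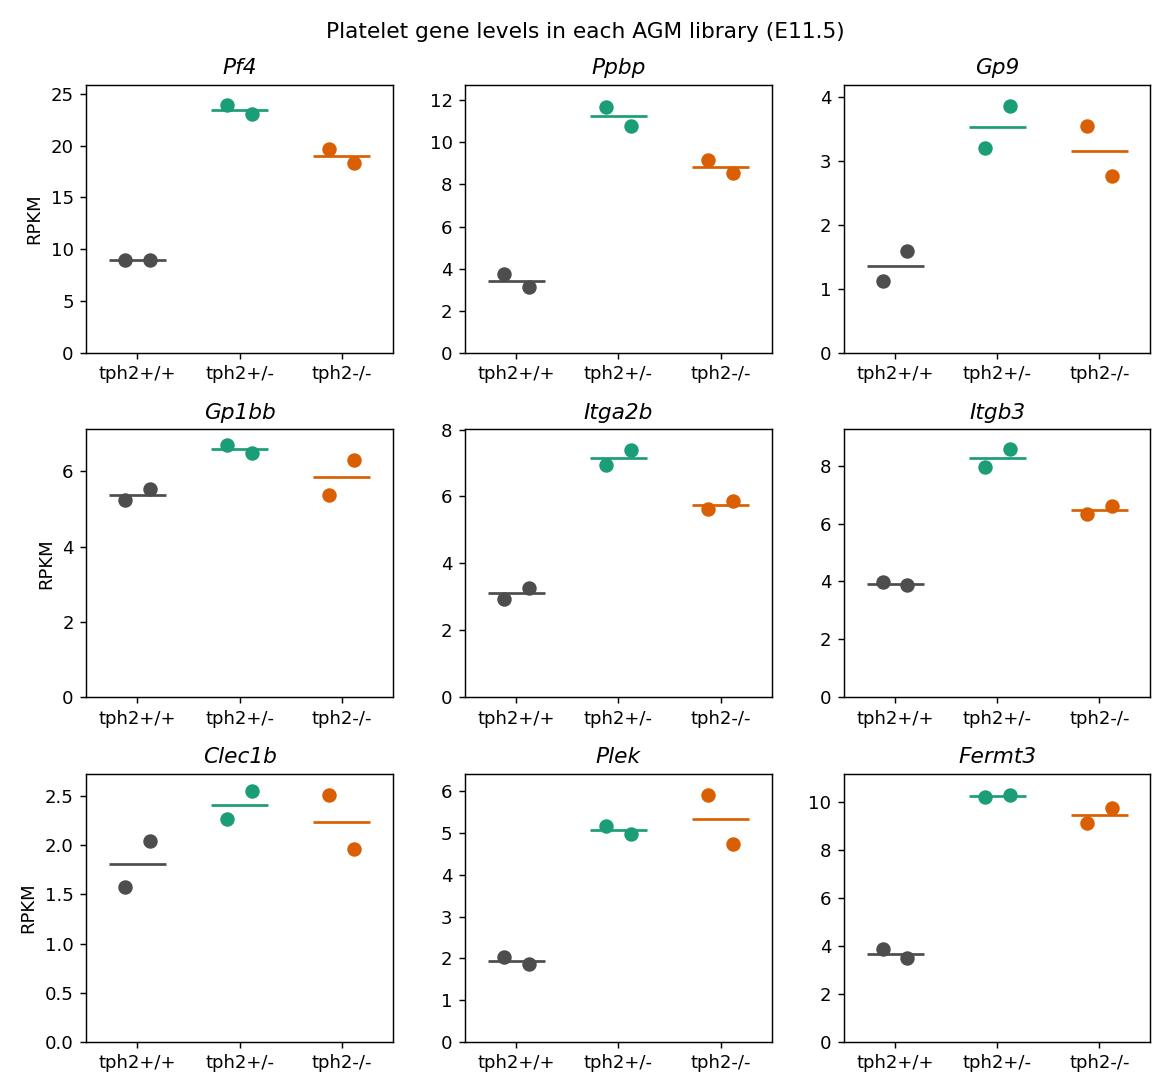
Level in RPKM (y axes, from 0, scaled per gene) of the 9 genes in each of the 6 libraries, grouped by genotype on the x axes, with each point a library and each bar the mean of 2. For Pf4, Ppbp, Gp9, Itga2b, Itgb3, Plek and Fermt3 all 4 mutant libraries lie above both tph2+/+ libraries, as with Pf4 at 18.3 to 23.9 against 8.91 and 8.95, while Gp1bb and Clec1b overlap between tph2+/+ and tph2-/-.

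Pf4 had the highest mean level of the 9 genes in every genotype. It encodes platelet factor 4, a heparin-binding CXC chemokine (chromosome 5, 90772435 to 90773383, plus strand, GRCm38). It stood at 8.95 and 8.91 RPKM in wild type, at 23.9 and 23.1 in heterozygotes and at 19.7 and 18.3 in homozygotes. Genotype means were 8.93 ± 0.0271, 23.5 ± 0.582 and 19 ± 1.02 RPKM (SD, n = 2 each). The 3 genotypes did not overlap, heterozygotes were highest, and replicates lay close together. Against tph2+/+ the mean level was 2.63-fold in tph2+/- (log2 fold change 1.30 ± 0.0599 SE, limma adjusted p = 5.68e-06) and 2.12-fold in tph2-/- (1.01 ± 0.0599, adjusted p = 3.53e-05). Ppbp encodes pro-platelet basic protein, from which a neutrophil-attracting chemokine is cut, and starts 5′ of Pf4 on the same strand (90768518 to 90770063), with 2372 bases between them. Its values were 3.72 and 3.12 RPKM in wild type, 11.7 and 10.8 in heterozygotes, and 9.15 and 8.54 in homozygotes. Of the 9 genes Ppbp had the largest RPKM ratio to tph2+/+ in tph2+/-, at 3.29-fold (log2 fold change 1.47 ± 0.0835 SE, adjusted p = 2.08e-05). In tph2-/- it was 2.59-fold (1.16, adjusted p = 7.78e-05). The nearest genes on either side of the pair are other chemokine genes and were close to 0. Cxcl5, 6894 bases from Ppbp, was at most 0.312 RPKM in any library, and Cxcl3, 12720 bases from Pf4, at most 0.192.

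The bases just before the RefSeq start of both chemokine genes are shown because the pair rose together (GRCm38.p6, 120 bases, 5′ to 3′ on the gene's strand, at chr5:90772315-90772434 for Pf4 and chr5:90768398-90768517 for Ppbp, plus strand). Capitals mark GATAA, the core letters bound by GATA factors such as Gata1, and GGAAG, core letters bound by ETS factors such as Fli1, on either strand, where GATAA reads TTATC and GGAAG reads CTTCC.
Pf4: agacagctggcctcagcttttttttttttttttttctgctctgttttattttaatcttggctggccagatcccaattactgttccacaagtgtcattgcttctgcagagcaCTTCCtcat
Ppbp: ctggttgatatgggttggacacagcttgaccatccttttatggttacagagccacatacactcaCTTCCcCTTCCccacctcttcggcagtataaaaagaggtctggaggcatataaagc
GGAAG was present before both genes and GATAA before neither in these windows. Within 250 bases before the start, 6 of the 8 genes with a promoter entry held GGAAG and 3 of 8 held GATAA, beside 63.6% and 23% of 27025 promoters. Both motifs stood together before 1 of the 8 genes and 13.3% of all promoters. Itgb3 had no entry. The sequences printed here and below are all of genes that rose, but genes that were not called also held matches. Within 250 bases Clec1b held 3 GATAA and Gp1bb 2 GGAAG. Of the risen genes not printed, Itga2b held 4 GGAAG, and Plek held 1 GATAA but no match in the last 120 bases. A match is a description of letters and not a binding site.

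Gp9 and Gp1bb encode small subunits of the von Willebrand factor receptor, both needed for the complex to reach the surface, and their levels behaved differently. Gp9 (chromosome 6, 87778072 to 87779768, plus strand) was the lowest of the 9 genes in tph2+/+, at 1.13 and 1.59 RPKM. It reached 3.21 and 3.86 RPKM in heterozygotes and 3.56 and 2.77 in homozygotes. All 4 mutant libraries lay above both tph2+/+ libraries, and the mutant genotypes overlapped. The log2 fold change was 0.95 ± 0.133 SE in tph2+/- (limma adjusted p = 0.00324) and 0.82 ± 0.133 in tph2-/- (0.0061). Without tph2-/- replicate 1 the latter was 0.68 with an adjusted p of 0.0758. Gp9 rested on few reads, 42 to 128 a library as recovered from the steps between low RPKM values. Before its start lay 1 GATAA and 1 GGAAG match, shown at chr6:87777950-87778069, plus strand, with the same marks.
Gp9: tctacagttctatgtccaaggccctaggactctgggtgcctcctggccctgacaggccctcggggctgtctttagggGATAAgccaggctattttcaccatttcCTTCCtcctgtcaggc

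Gp1bb (chromosome 16, 18620317 to 18622403, minus strand) stood at 5.23 and 5.53 RPKM in wild type, 6.70 and 6.48 in heterozygotes and 5.38 and 6.30 in homozygotes. The tph2-/- libraries overlapped tph2+/+, and the tph2+/- libraries lay above both. Its log2 fold change was 0.10 in tph2-/- (95% interval -0.084 to 0.28, adjusted p = 0.459) and 0.25 in tph2+/- (0.07 to 0.434, adjusted p = 0.113). The Gp1bb value is uncertain as a measure of the gene. In the GENCODE annotation 1902 of its 2087 exon bases also belong to exons of Sept5, a septin gene on the same strand. The gene models behind the table are not given, but the steps between RPKM values implied a Gp1bb length of 2086 bases. Sept5 had no row under its symbol. A row that holds the date 5 September, into which spreadsheets turn that symbol, lay above Gp1bb in every library. That row was at 19.9 and 21.1 RPKM in wild type, 20.5 and 20.4 in heterozygotes and 16.4 and 18.0 in homozygotes, lowest in the last. The ratio of Gp1bb to Gp9 was 4.64 and 3.47 in wild type, 2.09 and 1.68 in heterozygotes and 1.51 and 2.28 in homozygotes. The part of Sept5 reads in these values was not tested.

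Itga2b and Itgb3 encode the chains of the platelet fibrinogen receptor, and both rose. Itga2b, the chain limited to megakaryocytes and early blood progenitors (chromosome 11, 102453297 to 102470122, minus strand), was at 2.94 and 3.26 RPKM in wild type, 6.93 and 7.40 in heterozygotes and 5.64 and 5.86 in homozygotes. Genotypes did not overlap, with tph2+/- on top. Its log2 fold change was 0.99 ± 0.0748 SE in tph2+/- (adjusted p = 0.00013) and 0.72 ± 0.0748 in tph2-/- (0.000649), by limma. Itgb3, the chain it pairs with, lies on the same chromosome (104608000 to 104670476, plus strand). It held 3.97 and 3.88 RPKM in wild type, 7.94 and 8.58 in heterozygotes and 6.34 and 6.62 in homozygotes, in the same order. The log2 fold change of Itgb3 was 0.91 ± 0.0689 SE in tph2+/- (adjusted p = 0.000132) and 0.60 ± 0.0689 in tph2-/- (0.00106). The ratio of Itga2b to Itgb3 was 0.742 and 0.841 in wild type, 0.872 and 0.863 in heterozygotes and 0.89 and 0.885 in homozygotes. It was thus somewhat higher in every mutant library than in both tph2+/+ libraries. Itgav, the other alpha chain that pairs with Itgb3, had a log2 fold change of -0.03 in tph2+/- and 0.00 in tph2-/- (adjusted p = 0.876 and 0.979).

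Clec1b, the receptor CLEC-2 that is triggered by podoplanin on lymphatic and other cells (chromosome 6, 129397297 to 129409335, plus strand), did not pass. Its values were 1.58 and 2.04 RPKM in wild type, 2.27 and 2.55 in heterozygotes and 2.51 and 1.96 in homozygotes. Libraries of tph2-/- and tph2+/+ overlapped. The log2 fold change was 0.20 in tph2-/- (95% interval -0.066 to 0.474, adjusted p = 0.304) and 0.28 in tph2+/- (0.013 to 0.553, adjusted p = 0.226), on 85 to 122 reads a library. A rise of the size seen for Pf4 lay outside both intervals. In GENCODE 184 exon bases of Clec1b are shared with Clec9a, which was at most 0.525 RPKM. The RPKM steps implied a Clec1b length of 1171 bases, against 5103 exon bases in GENCODE, so this overlap may not apply. Pdpn, the gene of podoplanin, was at 7.85 and 6.62 RPKM in wild type, 6.85 and 7.35 in heterozygotes and 8.90 and 7.80 in homozygotes and was not called.

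The intracellular proteins gave the largest RPKM ratios in tph2-/-, together with Ppbp. Plek encodes pleckstrin, the main protein kinase C substrate of platelets (chromosome 11, 16971206 to 17052381, minus strand). Plek was at 2.03 and 1.86 RPKM in wild type, 5.16 and 4.98 in heterozygotes and 5.91 and 4.75 in homozygotes. It was the only one of the 9 with its mean higher in tph2-/- than in tph2+/-, and those genotypes overlapped. Against tph2+/+ the mean level was 2.74-fold in tph2-/- (log2 fold change 1.10 ± 0.0978 SE, limma adjusted p = 0.000264) and 2.61-fold in tph2+/- (1.04, adjusted p = 0.000415). Fermt3 encodes kindlin-3, the blood cell protein that helps talin switch integrins on (chromosome 19, 6998958 to 7019469, minus strand). It went from 3.85 and 3.48 RPKM in wild type to 10.2 and 10.3 in heterozygotes and 9.13 and 9.76 in homozygotes. No genotypes overlapped. The log2 fold change of Fermt3 was 1.27 ± 0.0695 SE in tph2+/- (adjusted p = 1.72e-05) and 1.16 ± 0.0695 in tph2-/- (3.53e-05). Its relatives Fermt1 and Fermt2, the kindlins of epithelium and of most other tissues, were not called in either comparison. Reads could not be told apart by strand here, and 89 exon bases of Fermt3 overlap Trpt1 and 199 of Plek overlap Cnrip1, each on the opposite strand in GENCODE. The RPKM steps implied 2588 bases for Fermt3 and 4119 for Plek, against 5784 and 4486 in GENCODE, so these overlaps may not apply. The bases before Fermt3 held 1 GGAAG and no GATAA, shown at chr19:7019470-7019589, minus strand, with the same marks.
Fermt3: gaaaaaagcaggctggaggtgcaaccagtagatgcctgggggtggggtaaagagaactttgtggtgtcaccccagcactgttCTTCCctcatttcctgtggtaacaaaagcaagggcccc

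**Figure D2:**
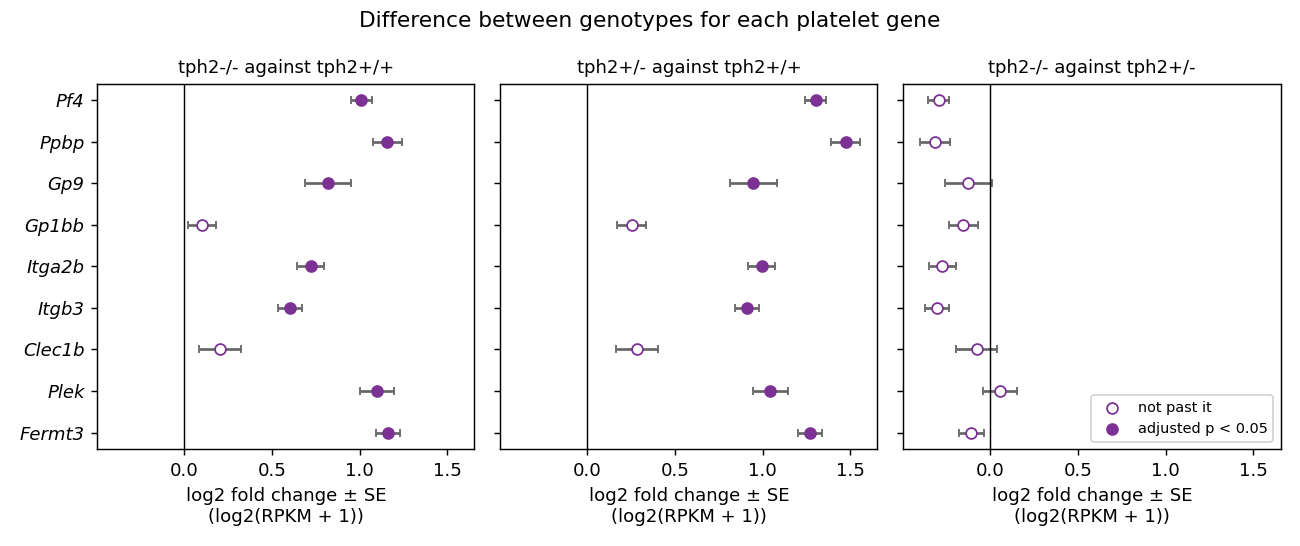
Log2 fold change on the log2(RPKM + 1) scale with its standard error (x axis) for each of the 9 genes (y axis) in the 3 pairwise comparisons, where filled points passed a limma adjusted p of 0.05. In both comparisons with tph2+/+, 7 genes are filled and Gp1bb and Clec1b are open, and none is filled between tph2-/- and tph2+/-.

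No gene of the 9 was called between the mutant genotypes. Between tph2-/- and tph2+/-, 8 of the 9 genes had a negative log2 fold change and Plek a positive one, with a median of -0.154, and limma called none (background 0.544% lower, 0.746% higher and 1.29% in either direction). At an unadjusted p under 0.05 there were 4 genes among the 9 and 1691 of all tested genes. The 4 were Pf4 at -0.29 (95% interval -0.43 to -0.159, adjusted p = 0.0568), Itgb3 at -0.31 (adjusted p = 0.0804), Ppbp at -0.32 (0.144) and Itga2b at -0.27 (0.157). For 6 of the 9 both tph2-/- libraries lay below both tph2+/- libraries, as they did for 21.7% of all tested genes, with 21.4% the other way round. In the comparisons with tph2+/+, both mutant libraries lay above both tph2+/+ libraries for 7 genes in tph2-/- (35.7% of all tested genes) and 9 in tph2+/- (32.3%). The opposite held for none of the 9, beside 24.2% and 19.8% of all tested genes.

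The libraries differed in X- and Y-linked RNA, and the labels do not give embryo sex. Xist was at 76.3 to 101 RPKM in both tph2+/+ libraries and in tph2+/- replicate 1 and at most 0.114 in the others, and Y-linked Ddx3y showed the opposite. In tph2-/- against tph2+/+ genotype and this pattern cannot be told apart by the libraries alone. In tph2+/- replicate 1, which shares the Xist pattern of tph2+/+, the log2 level exceeded the tph2+/+ mean by 1.33 for Pf4, 1.53 for Ppbp, 1.26 for Fermt3, 1.07 for Plek, 0.95 for Itga2b, 0.86 for Itgb3 and 0.84 for Gp9. It did so by 0.27 for Gp1bb and 0.22 for Clec1b. With only that tph2+/- library in the fit, the same comparison called 7 of the 9. With Y-linked expression as a term, 7 were called in tph2+/- and 5 in tph2-/-, where Gp9 (0.59, adjusted p = 0.226) and Itgb3 (0.51, adjusted p = 0.0617) did not pass. That term was set mainly by the difference between the tph2+/- libraries, which had opposite patterns. It therefore cannot separate this pattern from genotype in tph2-/-. Tph2 RNA itself was at 3 to 9 reads a library and did not check the genotype labels.

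Other platelet genes were read from lists that were also drawn up with earlier results known. In the surface receptor list 3 of 8 tested genes rose in tph2-/- and 4 in tph2+/-, and none fell. Treml1, an alpha granule receptor of platelets, was at 1.18 and 1.15 RPKM in wild type, 3.76 and 4.30 in heterozygotes and 2.94 and 3.49 in homozygotes (log2 fold change 0.96 ± 0.0985 SE in tph2-/-, adjusted p = 0.000612). Gp1ba, the chain of the glycoprotein Ib complex that binds von Willebrand factor, rose by 0.49 in tph2-/- (adjusted p = 0.0164) and 0.71 in tph2+/- (0.00291). Gp5, its remaining subunit, rose by 0.53 (adjusted p = 0.0492) and 0.88 (0.00734). Thus 3 of the 4 genes of that complex were called in both comparisons and Gp1bb in neither. Gp1ba and Gp5 averaged 0.84 and 0.969 RPKM in wild type, under the cut of 1 RPKM. They passed the filter through their mutant libraries, so their calls are no independent support for a rise. Gp6, the collagen receptor, stayed under the filter at 0.132 and 0.0968 RPKM in wild type, 0.516 and 0.616 in heterozygotes and 0.672 and 0.730 in homozygotes. Both mutant genotypes lay above tph2+/+ for Gp6, without a test.

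Of 8 tested agonist receptor genes 1 rose in tph2-/-, the ADP receptor P2ry1 at 0.43 (adjusted p = 0.0273), and in tph2+/- 2 rose and 1 fell. The rising genes in tph2+/- were F2rl2 and P2rx1, and the falling one was F2r. F2rl2 and P2rx1 averaged 0.767 and 0.73 RPKM in wild type and passed the filter through their mutant libraries. Of 22 tested genes that signal to the integrin, 4 rose in tph2-/- and 5 in tph2+/-. In tph2-/- they were the kinase Btk at 0.99 (adjusted p = 0.00134), the adaptor Lat at 0.53 (0.0217), Rasgrp2, the exchange factor that activates Rap proteins in platelets, at 0.40 (0.0166), and the adaptor Skap2 at 0.27 (0.034). Talin itself, Tln1, was not called (-0.16, adjusted p = 0.114). In the eicosanoid list 2 of 4 tested genes rose in each comparison, Alox5ap at 0.52 (adjusted p = 0.0153) and Alox12, the platelet lipoxygenase, at 0.37 (0.045) in tph2-/-. Alox12 had the larger value in tph2+/- (0.82, adjusted p = 0.0013). In the cytoskeleton list 2 of 13 rose in tph2-/-, Tubb1, the beta tubulin of platelets, and Bin2, and Flna fell by 0.25 (adjusted p = 0.0229). The 2 rising genes in tph2+/- came without a falling one.

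**Figure D3:**
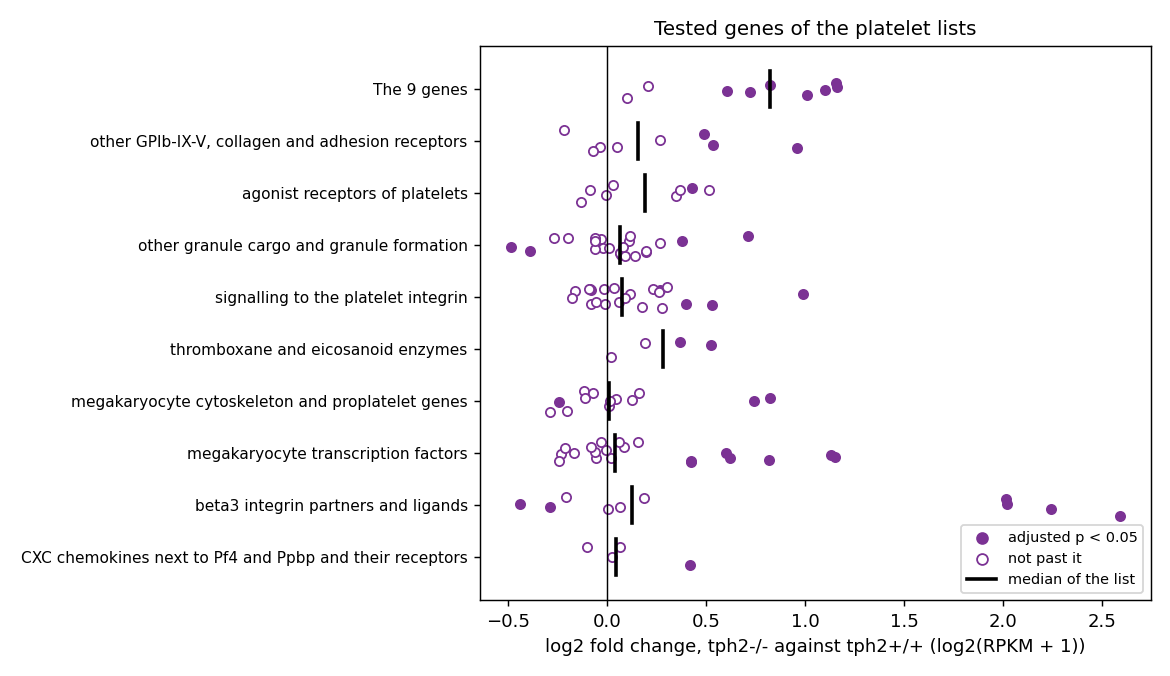
Log2 fold change in tph2-/- against tph2+/+ on the log2(RPKM + 1) scale (x axis) of every tested gene in the 9-gene group and in each platelet list (y axis), filled where the limma adjusted p was under 0.05, with the list median as a black bar. The 9 genes have a median of 0.82, the other lists have medians between 0.0072 and 0.279, and the fibrinogen chain genes and Vtn lie furthest right at 2.01 to 2.59.

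Cargo genes did not move as one. Of 23 tested genes for granule cargo and granule formation, 2 rose and 2 fell in tph2-/-, and 4 rose and 1 fell in tph2+/-. Srgn, the proteoglycan that holds Pf4 in granules, rose by 0.71 (adjusted p = 0.00224) in tph2-/-, and Tgfb1 by 0.38 (0.0257). Vwf, made by endothelium as well as megakaryocytes, fell from 6.60 and 6.62 RPKM in wild type to 4.36 and 4.32 in heterozygotes and 4.31 and 4.54 in homozygotes (log2 fold change -0.51 and -0.49, adjusted p = 0.00244 and 0.00286). Pdgfa fell in tph2-/- (-0.39, adjusted p = 0.0112). The serotonin transporter Slc6a4 stayed under the filter, at 0.475 and 0.333 RPKM in wild type, 0.622 and 0.758 in heterozygotes and 0.601 and 0.436 in homozygotes. The tph2-/- libraries overlapped tph2+/+, and tph2+/- lay above both. The chemokine and receptor list had 4 tested genes, of which Cxcr4 rose in tph2-/- (0.42, adjusted p = 0.0251) and 1 fell in tph2+/-. Between tph2-/- and tph2+/- the platelet lists held 1 called gene that fell, Pdgfa (-0.38, adjusted p = 0.0445), and 1 that rose, Cxcl12 (0.38, 0.0081).

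Among the transcription factors of the lineage 7 of 20 rose in each comparison, and 2 fell in tph2+/-. Gata1, the master factor of red cells and megakaryocytes, was at 3.56 and 3.58 RPKM in wild type, 9.34 and 9.80 in heterozygotes and 8.23 and 10.1 in homozygotes (log2 fold change 1.15 ± 0.0886 SE in tph2-/-, adjusted p = 0.000119). Gfi1b rose by 1.13 (adjusted p = 0.000418), Nfe2, needed for platelet release, by 0.82 (0.0029) and Tal1 by 0.62 (0.0166). Fli1 and Runx1 were not called (-0.06 and 0.08, adjusted p = 0.641 and 0.703). The ratio of Pf4 to Gata1 was 2.52 and 2.49 in wild type, 2.56 and 2.35 in heterozygotes and 2.39 and 1.81 in homozygotes. Pf4 relative to the endothelial cadherin Cdh5 went from 0.312 and 0.301 in wild type to 0.943 and 0.884 in heterozygotes and 0.753 and 0.68 in homozygotes. In RNA from whole tissue, more cells of a type and more RNA per cell cannot be told apart.

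Of 10 tested partners and ligands of beta3 integrin 4 rose in tph2-/-, the fibrinogen chain genes Fga, Fgb and Fgg and the gene of vitronectin, Vtn, all of them products of liver. Fgb, also counted among the hepatoblast markers, rose by 2.59 (adjusted p = 0.00113) and Vtn by 2.24 (7.23e-05). Fga rose by 2.02 (0.000245) and Fgg by 2.01 (0.000146). Fn1 and Itga5, the fibronectin gene and a fibronectin receptor chain, fell in tph2-/- (-0.44 and -0.29, adjusted p = 0.00443 and 0.0237). In tph2+/- 4 rose and 1 fell.

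Markers of other cell types were read in the same libraries, and the lists differed in how they changed. The 14 hepatoblast markers summed to 53.7 to 55.5 RPKM in wild type, 367 and 565 in heterozygotes and 535 to 564 in homozygotes, and all 14 rose in both comparisons, led in tph2-/- by Alb at 3.73 (adjusted p = 0.0187), Apoa1, Afp and Ambp. The 9 platelet genes summed to 33.4 and 33.7, 78.0 and 78.1, and 67.3 and 64.8 RPKM in the same order. Between the tph2+/- libraries the hepatoblast sum thus differed while the platelet sum was nearly equal. Single platelet genes behind that sum moved both ways. Pf4 (23.9 and 23.1 RPKM), Ppbp, Gp1bb and Plek were lower in tph2+/- replicate 2 than in replicate 1. Gp9, Itga2b, Itgb3 (7.94 and 8.58 RPKM), Clec1b and Fermt3 were higher. Pf4 to Alb was 0.579 and 0.277 in these libraries, against 1.86 and 1.96 in wild type and 0.254 and 0.255 in homozygotes. Erythroid markers rose in 8 of 17 cases in tph2-/- and 6 in tph2+/-, led in tph2-/- by Klf1 (1.14, adjusted p = 0.000686), Rhag and Ermap. Their sum was 10500 to 11000 RPKM in wild type, 11500 and 16800 in heterozygotes and 14000 to 14500 in homozygotes. Fetal liver makes megakaryocytes and red cells, and the part of liver tissue in the platelet gene result was not tested.

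Of 16 listed leukocyte markers 8 passed the filter, which uses the mean of all 6 libraries and so favours genes that are higher in the mutants. Of these 8, 5 rose in tph2-/- and 4 in tph2+/-, among them Ikzf1 (1.11, adjusted p = 0.000743 in tph2-/-), Rac2, Was and Coro1a. Ptprc, the common leukocyte antigen, was under the filter at 0.299 to 0.513 RPKM. The 16 listed genes summed to 51.9 and 52.4 RPKM in wild type and 67.2 to 73.0 in the mutant libraries. Of 15 listed progenitor markers 12 passed the same filter. Of these 12, 6 rose in each comparison, among them Spn (1.18, adjusted p = 0.000561 in tph2-/-), Gpr56, Lmo2 and Mecom. The 15 listed genes summed to 102 and 108 RPKM in wild type and 123 to 131 in the mutant libraries. Pf4 relative to Kit, the stem cell factor receptor of progenitors, was 1.62 and 1.60 in wild type, 3.48 and 3.36 in heterozygotes and 2.57 and 2.51 in homozygotes. Of 13 listed macrophage markers 11 passed the filter. By limma 3 of these rose in tph2-/- and 0 in tph2+/-, where 4 had an unadjusted p under 0.05. Those called in tph2-/- were Tyrobp (0.55, adjusted p = 0.0123), Sfpi1 and C1qc. The 13 listed genes summed to 44.5 to 44.9 RPKM in wild type and 48.7 to 58.0 in the mutant libraries. Of 12 listed mast cell and neutrophil markers only 4 passed the same filter. All 4 rose in tph2-/-, led by S100a9 (1.91, adjusted p = 0.0431), Mpo (1.59, 7.61e-05), S100a8 and Prtn3, and 2 in tph2+/-. The 12 listed genes summed to 6.17 and 6.51 RPKM in wild type, 13 and 19.8 in heterozygotes and 22.5 and 22.7 in homozygotes, with Mcpt4 and Fcer1a listed at 0 in every library. Of 8 listed neural markers 7 passed the filter. All 7 rose in tph2-/-, among them Tubb3 (1.81, adjusted p = 5.39e-05), Sox2, Stmn2 and Elavl3, and 3 in tph2+/-. All 7 were also called higher in tph2-/- than in tph2+/-. The 8 listed genes summed to 22.6 and 21.7 RPKM in wild type, 25.8 and 30.4 in heterozygotes and 77.7 and 82.3 in homozygotes. Limma called no pan-endothelial marker of 14 in either comparison (at an unadjusted p under 0.05, 2 were lower in tph2-/- and 4 in tph2+/-), and their sum was 173 and 180 RPKM in wild type and 161 to 167 in the mutant libraries. The part of these cells in the platelet gene result was not tested.

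**Figure D4:**
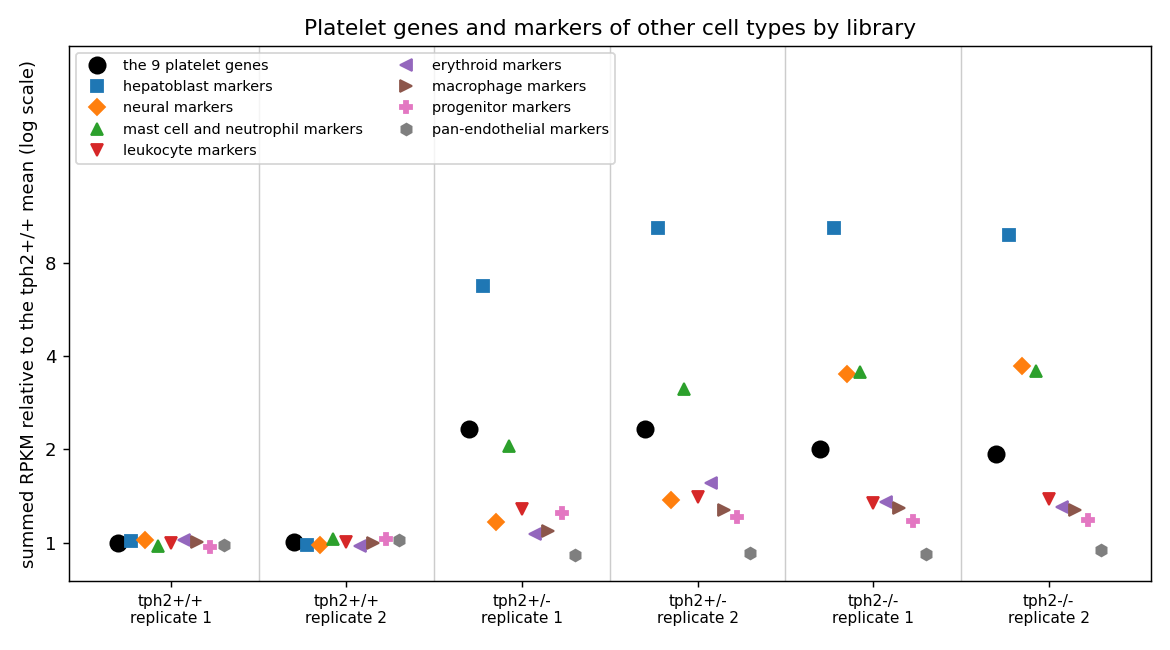
Summed RPKM of the 9 platelet genes and of each marker list, divided by the mean of its sums in the 2 tph2+/+ libraries (y axis, log scale), in each of the 6 libraries (x axis). The sum of the platelet genes sits at about the same height in both tph2+/- libraries (78.0 and 78.1 RPKM), although single genes moved both ways. The hepatoblast sum differs there (367 and 565 RPKM), and neural markers are highest in tph2-/-.

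Profiles over the 6 libraries were also compared with all tested genes. When the median of the 9 centred log2(RPKM + 1) values was taken per library, the 5 nearest tested genes by Euclidean distance were Penk, Tubb1, Lect1, Ptprcap and Tnfaip2, at distances of 0.117 to 0.201. Lect1 and Ptprcap averaged 0.322 and 0.833 RPKM in wild type, under the cut of 1 RPKM. They passed the filter through their mutant libraries, so their place here is partly set by the filter. Penk, the proenkephalin gene, was at 2.88 and 3.17 RPKM in wild type, 6.46 and 7.54 in heterozygotes and 5.97 and 5.56 in homozygotes. Tubb1 was at 2.66 and 2.96, 7.18 and 7.55, and 5.88 and 5.58 RPKM in the same order. Among the 9 genes, Itga2b and Gp9 lay nearest the shared pattern, at distances of 0.172 and 0.179, and Gp1bb and Clec1b lay furthest, at 0.892 and 0.79. Outside the group, 2 genes lay nearer than Itga2b and 1337 lay nearer than Gp1bb. Each of the 9 genes helped set the median and outside genes did not, so these ranks describe the pattern and are no even comparison.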

How the data were processed

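RNA came from AGM regions, and libraries were made with an unstranded TruSeq kit and read as pairs on a HiSeq instrument, per the labels' protocols. The authors deposited RPKM values, 1 column per library. TopHat2 2.0.9, HTSeq 0.5.3p9 and GRCm38 are named in the submitters' processing notes, with no gene models. Of 56826 rows, 33353 clone rows and 27 rows with dates were left out. The smallest steps in the RPKM values gave relative depths of 0.843 to 1 (the deepest library set to 1) and put 42 to 2024 reads behind each value of the 9 genes.

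Symbol rows averaging 1 RPKM or more were taken as log2(RPKM + 1), a scale that understates changes of low genes, and fitted with limma 3.58.1 (R 4.3.3, trend and robust eBayes) to all 6 libraries in 3 genotype groups with no covariate and 3 residual degrees of freedom. The filter used the mean of all 6 libraries, so a gene under 1 RPKM in tph2+/+ could pass through higher mutant libraries. Benjamini-Hochberg adjustment covered the 12869 tested genes, with a threshold of 0.05. The fit was tested on simulated data. The genes and lists were chosen with earlier results of these data known. From each list the text names up to 4 called genes with the largest fold change in tph2-/- against tph2+/+, plus Gp1ba, Gp5, Gp6, Vwf, Slc6a4, Gata1, Nfe2, Pdpn, Ptprc and Sept5, genes that adjoin or overlap the 9, and the 5 nearest profiles. Some genes that this rule covers are not reported here. Cxcl12, Itgav, Fermt1, Fermt2, Tln1, Fli1, Runx1, Cdh5, Kit, F2r, F2rl2, P2rx1 and the fallen Fn1 and Itga5 were named after their values were seen. Alternatives were another pseudocount, filters, scalings, variance models, covariates, all rows, fewer groups, and each library left out. Positions come from GENCODE M21 and promoters from RefSeq, both on GRCm38.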

Additional observations from a re-analysis of the deposited data

How the results depend on the processing

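The genes called among the 9 numbered 7 in tph2+/- against tph2+/+ under every alternative run, and 5 to 7 in tph2-/- against tph2+/+, where Gp9 and Itgb3 lost their call with Y-linked expression as a term and Gp9 without tph2-/- replicate 1. No log2 fold change of the 9 against tph2+/+ changed sign. Over all tested genes, 1241 were called in tph2-/- against tph2+/+, 422 with Y-linked expression as a term and 383 to 1530 with a library left out (466 and 383 without tph2+/+ replicate 1 and 2, 388 and 809 without tph2-/- replicate 1 and 2). In tph2+/- against tph2+/+ 782 were called, and 325 to 805 with a library left out, the fewest without tph2+/+ replicate 1 (325) and 2 (339). Between tph2-/- and tph2+/- 166 were called, 292 with a mean of at least 0.1 RPKM, 269 with Y-linked expression as a term and 57 to 288 with a library left out (57 and 74 without tph2-/- replicate 1 and 2, 288 without tph2+/- replicate 1). Values there that turned sign were those of Gp9 (-0.265 to 0.0122), Clec1b (-0.202 to 0.0447) and Plek (-0.0784 to 0.187), none of them called. The cause was not tested. Replicate numbers are shared between genotypes but the labels do not tie them to litters, and deviations of same-numbered libraries correlated at 0.033, 0.17 and 0.0727 across genes. With the replicate block 1 gene of the 9 was called between tph2-/- and tph2+/-, Pf4 at -0.29 (adjusted p = 0.0404, and 0.0525 to 0.154 under the other alternatives), and 1649, 908 and 220 genes were called over all. Gp9 and Clec1b, with 42 to 128 reads a library, were the members most limited by depth.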
